A study of Mus musculus with 3 samples.

Results

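The Serpin genes encode a superfamily of proteins, most of which inhibit serine or cysteine proteases. They were taken as all protein-coding genes whose symbol starts with Serpin in the mouse RefSeq annotation, which gave 63 of 21900 protein-coding genes. The letter after Serpin names the clade, and 28 genes belong to clade b, 24 to clade a and 11 to clades c to i. Chromatin immunoprecipitation followed by sequencing was carried out on suprabasal keratinocytes, epidermal cells that have left the basal layer and are differentiating, of BALB/c mice with the wild type genotype. The sample labels give adult animals and the series text describes newborn ones, and no treatment is given for any library. The study made 1 library with anti-DLX3, DLX3 being a homeodomain factor that acts in epidermis, hair and teeth, and 1 with anti-H3K4me3, which recovers a histone mark found at active promoters. A library with nonspecific IgG was not analysed here, as it has no list of peaks. With 1 library per antibody there is no replicate spread, so the peaks are described and no test was made.

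A serpin acts as a single-use trap: the target protease cuts an exposed loop of the inhibitor, which then changes shape and holds the enzyme in a dead complex. Clade a holds secreted serpins, many of them made by the liver, such as antitrypsin (the Serpina1 genes) and the antichymotrypsin-like Serpina3 genes. Clade b serpins lack a classical signal peptide and act largely inside cells, and several are made in stratified epithelium, where inhibitors set against kallikreins and cathepsins help to time the shedding of the outermost cells. The other clades include inhibitors of coagulation, fibrinolysis and complement, and Serpinh1, which inhibits no protease and serves as a collagen chaperone.

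Most Serpin genes carried neither DLX3 nor H3K4me3. A peak was counted for a gene when at least 1 base of it fell on the gene span or in the 5 kb on either side. A DLX3 peak lay at 9 of the 63 Serpin genes (14.3%), against 41.4% of all protein-coding genes. An H3K4me3 peak also lay at 9 of the 63 (14.3%), against 66.2% of all protein-coding genes. In all, 4 genes carried peaks of both lists, 5 DLX3 alone, 5 H3K4me3 alone and 49 neither. The Serpin spans are of moderate length, with a median of 11064 bp against 17146 bp over all protein-coding genes. Among protein-coding genes whose spans lie within the Serpin range of 5318 to 85031 bp, 46.0% had a DLX3 peak and 73.2% an H3K4me3 peak. Serpin genes with H3K4me3 carried DLX3 in 4 of 9 cases, against 60.0% of marked genes in general, and those without it in 5 of 54 (9.26%), against 5.16% of unmarked genes.

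Taken whole, clade b, which holds epidermal members, did not carry DLX3 more often than clade a, with its liver members. DLX3 peaks lay at 3 of 28 clade b genes (10.7%), Serpinb5, Serpinb12 and Serpinb11, at 3 of 24 clade a genes (12.5%), Serpina11, Serpina9 and Serpina12, and at 3 of 11 genes of clades c to i (27.3%), Serpini1 and Serpine2 among them. H3K4me3 peaks lay at 5 of 28 clade b genes (17.9%), Serpinb5, Serpinb8, Serpinb6b, Serpinb9 and Serpinb6a, at 1 of 24 clade a genes (4.17%), Serpina12, and at 3 of 11 others, Serpini1, Serpinh1 and Serpine2. Every one of these shares was below that of all protein-coding genes. With each peak counted once, the 9 DLX3 genes rested on 11 distinct peaks, of which 4 lay at clade b, 4 at clade a and 3 at the other clades, and the 9 H3K4me3 genes rested on 12. Of the 11 DLX3 peaks, 3 overlapped H3K4me3 by 1 bp or more (27.3%), against 42.1% of all DLX3 peaks; 2 of them were at Serpinb5 and 1 at Serpini1.

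**Figure D1:**
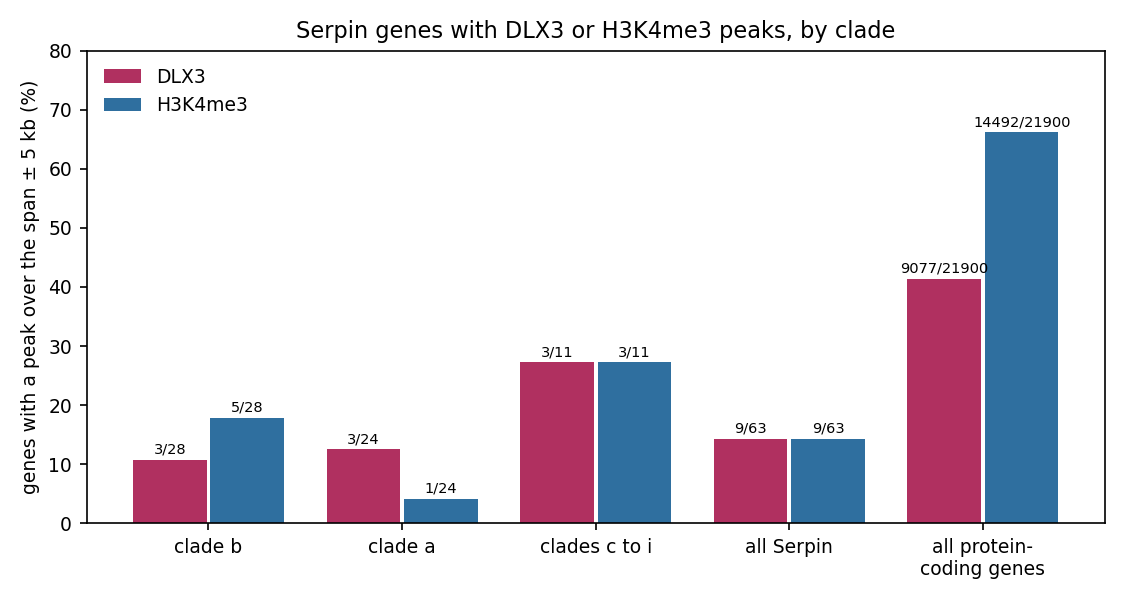
Bars give the percentage of genes with a DLX3 peak (red) or an H3K4me3 peak (blue) over the gene span with 5 kb on either side, with the number of genes above each bar. Clades b and a stood at 10.7% and 12.5% for DLX3, and the bars of all protein-coding genes, at 41.4% and 66.2%, were the highest in the plot.

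Serpinb5, which encodes maspin, an epithelial serpin that does not inhibit proteases, was the clade b gene with both marks. Its lower-scoring DLX3 peak (chromosome 1, 106860570 to 106861296, mm10; score 94.39) covered the start of the gene, with its centre 242 bp upstream. Its higher-scoring DLX3 peak (106865793 to 106866425; score 121.89) was centred 4934 bp inside the gene. Scores are the authors' own, and 59.3% and 73.6% of the DLX3 list scored lower than these 2 peaks. Both lay within a single H3K4me3 peak of 7019 bp (106860467 to 106867485; score 948.05), which was wider than 99.2% of the H3K4me3 list although its score exceeded only 54.1% of it.

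The 250 bases before the start of Serpinb5 lie wholly inside its lower-scoring DLX3 peak. Of the Serpin genes with a listed promoter, Serpini1 alone had its top-scoring DLX3 peak reach that promoter, with 126 of the 250 bases before the start inside the peak. Serpina12 is shown because H3K4me3 covered its start without DLX3 there, and Serpinb7, a clade b gene mutated in a human palmoplantar keratosis, because it had neither peak. Serpina12 was added after its values were seen. The sequences are from RefSeq (GRCm38.p6, the assembly of mm10), 5′ to 3′ on the strand of the gene: Serpinb5 at chr1:106860925-106861174 (plus strand), Serpinb7 at chr1:107422439-107422688 (plus strand), Serpina12 at chr12:104044444-104044693 (minus strand) and Serpini1 at chr3:75557243-75557492 (plus strand). Capitals mark matches to the AP-1-like motif TGANTCA, where N is any base, and the GC box GGGCGG in Serpinb5. They mark TGANTCA and the homeodomain core TAATT in Serpinb7, and CCAAT and GGGCGG in Serpina12. In Serpini1 they mark CCAAT and TAATT, which overlap. Each motif was searched on both strands. Serpinb5 also holds a CCAAT match, beginning 127 bases before the start, and Serpinb7 holds TATAAA matches, all left in lower case.
Serpinb5: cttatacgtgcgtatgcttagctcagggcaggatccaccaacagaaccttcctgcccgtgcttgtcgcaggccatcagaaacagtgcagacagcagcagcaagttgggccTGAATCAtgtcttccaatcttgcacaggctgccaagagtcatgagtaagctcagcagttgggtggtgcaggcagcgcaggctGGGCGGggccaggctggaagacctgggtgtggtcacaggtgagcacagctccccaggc
Serpinb7: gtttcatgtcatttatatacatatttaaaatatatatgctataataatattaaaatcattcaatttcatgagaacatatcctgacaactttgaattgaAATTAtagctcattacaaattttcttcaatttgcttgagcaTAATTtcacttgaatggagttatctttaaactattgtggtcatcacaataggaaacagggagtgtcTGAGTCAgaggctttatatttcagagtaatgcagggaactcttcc
Serpina12: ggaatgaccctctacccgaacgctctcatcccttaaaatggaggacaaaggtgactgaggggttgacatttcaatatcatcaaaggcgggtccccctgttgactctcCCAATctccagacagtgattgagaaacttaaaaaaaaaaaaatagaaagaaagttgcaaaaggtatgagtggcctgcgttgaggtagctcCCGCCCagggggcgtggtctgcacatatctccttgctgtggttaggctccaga
Serpini1: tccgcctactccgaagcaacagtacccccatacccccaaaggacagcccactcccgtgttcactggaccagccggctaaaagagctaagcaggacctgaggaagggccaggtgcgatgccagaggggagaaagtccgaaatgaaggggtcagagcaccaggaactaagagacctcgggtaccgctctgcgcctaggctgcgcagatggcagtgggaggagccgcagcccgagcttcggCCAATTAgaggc

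The clade b genes of chromosome 1 form a single run of 12 genes over 747.8 kb, Serpinb5 included, which lies at the low end. The DLX3 peak of Serpinb12, whose product inhibits trypsin-like proteases, scored 57.65 (106958492 to 106958902) and was centred 1617 bp beyond an end of its span and 19740 bp downstream of its nearest listed start. Serpinb11 had a DLX3 peak of score 66.11 (107365986 to 107366579) inside the gene, 3968 bp from its start. Both scored below the DLX3 median of 83.35, and neither gene had H3K4me3 in its window: the nearest H3K4me3 peak lay 67.0 kb from the span of Serpinb12 and 209 kb from that of Serpinb11. Serpinb8, whose human counterpart inhibits furin, had no DLX3 peak nearer than 31.3 kb and carried H3K4me3 over its start (107589454 to 107594249; 4796 bp, score 1385.58), with a weaker H3K4me3 peak of score 50.92 (107594724 to 107595607) further into the gene.

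The other 8 genes of the run had neither peak. They were Serpinb13, an inhibitor of cathepsins L and K in human, Serpinb3a, Serpinb3b, Serpinb3c and Serpinb3d, the mouse counterparts of the human squamous cell carcinoma antigens, Serpinb7, Serpinb2, the intracellular inhibitor of urokinase, and Serpinb10. Their distances to the nearest DLX3 peak were 22.1 kb for Serpinb13, 56.1 kb for Serpinb7, 79.5 kb for Serpinb10 and 115 kb for Serpinb2. Among the Serpinb3 genes that distance was shortest at Serpinb3a (86.7 kb) and longest at Serpinb3b (195 kb). A stretch of 407.1 kb between the peaks of Serpinb12 and Serpinb11 held no DLX3 peak, and 722.0 kb between Serpinb5 and Serpinb8 held no H3K4me3 peak. A further DLX3 peak of the run (106907751 to 106908385; score 79.42) lay 24.4 kb from the span of Serpinb5, outside every gene window. Even so, the run as a whole had 6.598 DLX3 peaks per Mb, against 5.82 over chromosome 1, and 3.96 H3K4me3 peaks per Mb, against 4.72.

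**Figure D2:**
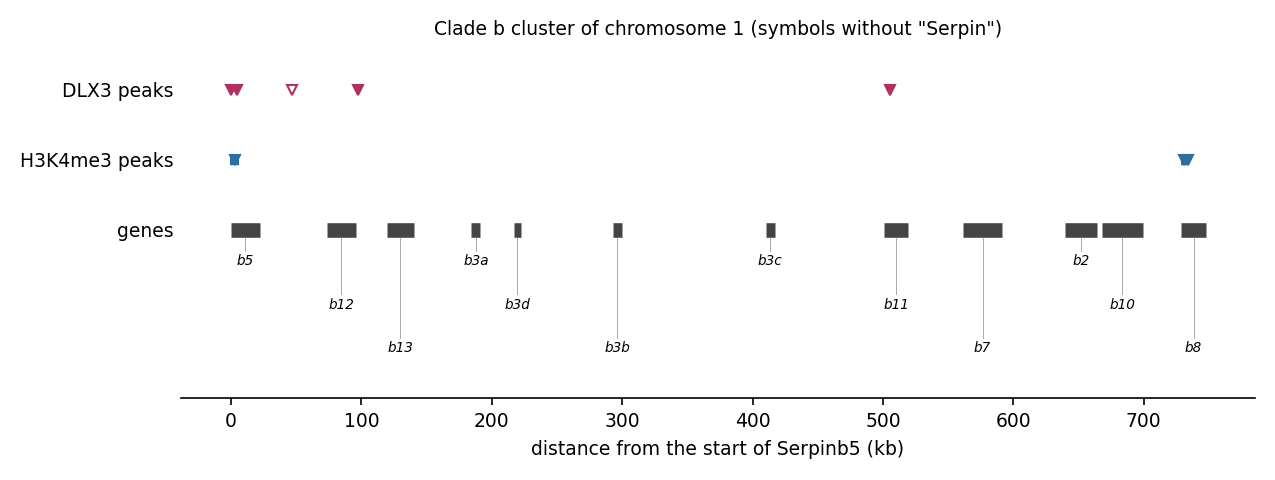
The horizontal axis is the distance in kb from the start of Serpinb5, bars are gene spans, and triangles mark the centres of DLX3 (red) and H3K4me3 (blue) peaks, open where a peak lay outside every gene window. Apart from 1 peak at Serpinb11, the DLX3 peaks lay toward the Serpinb5 end, with 407.1 kb free of them between Serpinb12 and Serpinb11. H3K4me3 stood at the first and the last gene of the run.

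The clade b genes of chromosome 13 had no DLX3 peak at all. This run of 16 genes, from Serpinb1a to Serpinb6a, spans 1160.7 kb, and 0 DLX3 peaks lay in it or within 5 kb of it, against 7.34 per Mb over chromosome 13. The distance to the nearest DLX3 peak ran from 39.8 kb at Serpinb1a, an inhibitor of neutrophil elastase, to 593 kb at Serpinb9h. H3K4me3 lay at 3 of the 16 genes, and the run held 5.13 H3K4me3 peaks per Mb, against 5.80 over the chromosome. At Serpinb6a, an inhibitor of cathepsin G, the strongest H3K4me3 peak (chromosome 13, 34001698 to 34003630; score 1932.82) covered a listed start and also an end of the neighbouring gene Ripk1, a kinase gene of cell death signalling, so that the peak cannot be given to Serpinb6a alone. A weaker H3K4me3 peak (33934838 to 33936562; score 545.11) covered another listed start of Serpinb6a, and another (33964109 to 33965715; score 224.41) lay at an end of Nqo2, a quinone reductase gene inside the Serpinb6a span.

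Serpinb6b and Serpinb9 had weaker H3K4me3 peaks over their starts. The peak at Serpinb6b (32964968 to 32966138) scored 126.23 and that at Serpinb9 (33004049 to 33005038), whose product inhibits granzyme B, scored 139.44, and 16.9% and 18.4% of the H3K4me3 list scored lower. The starts of both lie more than 5 kb inside their annotated spans. Both genes are also used by lymphocytes, and of 10 immune marker genes 4 had H3K4me3 (Cd3g, Tyrobp, Cd68 and Coro1a) while Ptprc, Cd3e, Cd3d, Lyz2, Itgam and Cd52 had none, a share of 40.0% against 66.2% of all protein-coding genes; the part of immune cells in these peaks was not tested. The 13 other genes of the run had neither peak: Serpinb1a, Serpinb1b, Serpinb1c, Serpinb6c, Serpinb6d, Serpinb6e, Serpinb9b, Serpinb9c, Serpinb9d, Serpinb9e, Serpinb9f, Serpinb9g and Serpinb9h.

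The clade a genes carried DLX3 at 3 neighbours in the middle of their run on chromosome 12. Serpina11 held the highest-scoring DLX3 peak of all Serpin genes (chromosome 12, 103982834 to 103983643; score 265.34), above 96.2% of the list, inside the gene and 6705 bp downstream of its nearest listed start. A peak between Serpina11 and Serpina9 (103992731 to 103993579; score 140.62), above 80.4% of the list, lay in the windows of both genes, 3198 bp upstream of a listed start of Serpina11. Serpina9, known from germinal-centre B cells, had a further DLX3 peak of score 50.8 (104002616 to 104003159) inside its span. None of these 3 peaks met H3K4me3: the nearest lay 58684, 48748 and 39168 bp away, at Serpina12 in every case.

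Serpina12 encodes vaspin, an inhibitor of kallikrein 7, and was the clade a gene with H3K4me3. That peak (104042327 to 104044567; 2241 bp, score 207.16) covered the start of the gene, and 23.9% of the list scored lower. Its DLX3 peak (104041352 to 104041637; score 50.77) was centred 2949 bp inside the gene, 690 bp away from the H3K4me3 peak, and 1.65% of the DLX3 list scored lower. The other 20 genes of the run had neither mark, among them all 6 Serpina1 genes and all 10 Serpina3 genes, and Serpina7, the thyroxine-binding globulin gene on chromosome X, had neither. The run as a whole held 7 DLX3 peaks (8.67 per Mb, against 5.69 over chromosome 12) and 1 H3K4me3 peak (1.24 per Mb, against 5.04). Of 14 hepatocyte marker genes, 0 had a DLX3 peak and 3 had H3K4me3 (Apoa1, Apoa2 and Fgb; 21.4%), against 41.4% and 66.2% of all protein-coding genes.

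**Figure D3:**
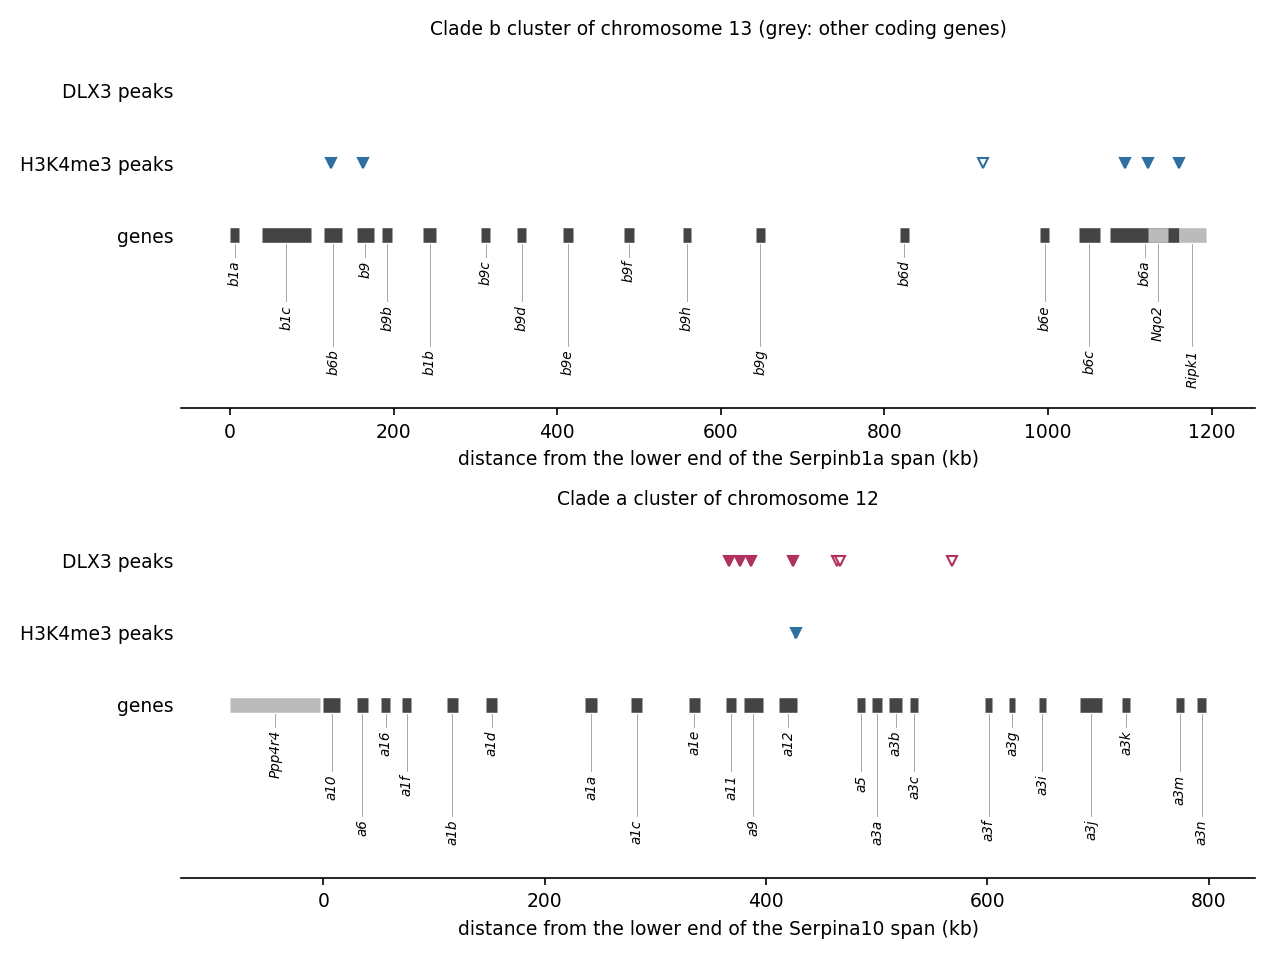
Each panel is drawn as distance in kb from the lower end of the first gene span, with bars for Serpin genes (dark) and other coding genes (grey) and triangles for peaks, open where a peak lay outside every Serpin window. The upper panel, clade b on chromosome 13, has 0 DLX3 peaks and 6 H3K4me3 peaks; the lower panel, clade a on chromosome 12, has 7 DLX3 peaks, the first 4 of them at Serpina11, Serpina9 and Serpina12, and 1 H3K4me3 peak.

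In clades c to i the marks lay at Serpini1, Serpine2 and the collagen chaperone gene Serpinh1, among others. Serpini1, which encodes neuroserpin, an inhibitor of tissue plasminogen activator known from neurons, had DLX3 at a score of 146.31 (chromosome 3, 75556581 to 75557368), centred 519 bp upstream of its start. It also had the highest-scoring H3K4me3 peak of all Serpin genes (75555702 to 75558114; score 2164.5). Both peaks also reached an end of Pdcd10, the neighbouring gene, whose product is tied to cell junctions and vessels, and when each peak was given only to the nearest protein-coding gene Serpini1 had none. Serpine2, which encodes protease nexin, had H3K4me3 over its start (chromosome 1, 79857522 to 79859503; score 560.02) and a DLX3 peak of score 50.16 (79846959 to 79847344) inside the gene, 11514 bp from the start.

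Serpinh1 had H3K4me3 over its start (chromosome 7, 99350615 to 99353727; 3113 bp, score 688.42) and no DLX3 peak nearer than 27.4 kb. Collagen-producing fibroblasts use this gene heavily, and of 10 fibroblast marker genes 7 had H3K4me3 (among them Col1a1, Col1a2 and Dcn), close to the 66.2% of all protein-coding genes, and 2 a DLX3 peak (Mfap5 at 77.07 and Fbn1 at 59.49), against 41.4% of all; the part of fibroblasts in the Serpinh1 and Serpine2 peaks was not tested. Another 7 genes of these clades had neither mark, among them Serpinc1 (antithrombin), Serpind1 (heparin cofactor), Serping1 (the inhibitor of the first complement component), Serpinf2 (antiplasmin) and Serpini2. Of these 7, Serpinf2 lay nearest to a peak of either list, 14.8 kb from DLX3 and 14.1 kb from H3K4me3, and Serpini2 farthest, 287 kb and 286 kb.

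Scores at the Serpin genes ran from near the bottom of each list to well above its median. The 11 DLX3 peaks had scores from 50.16 to 265.34 with a median of 66.11, against a median of 83.35 over all 18087 DLX3 peaks. Of the 11, 3 scored below 55, close to the lowest deposited score of 50.01, as did 10.6% of the whole list; these were at Serpina9, Serpina12 and Serpine2. In all, 6 of the 11 lay below the list median and 5 above it, and 3 were in the top 20% of the list, 2 of them at Serpina11 and 1 at Serpini1. The 12 H3K4me3 peaks had scores from 50.92 to 2164.5 with a median of 552.57, against 823.67 over all 16735 H3K4me3 peaks, and 8 of the 12 lay below that median, 1 of them below 55, while 2 were in the top 20%. With peaks at or above the median score of each list, DLX3 remained at 1 clade b gene (Serpinb5), 2 clade a genes and 1 other, and with the top 20% of each list at 0 clade b genes, 2 clade a genes and 1 other. The share of all protein-coding genes at these thresholds was not computed, so these counts do not set the clades apart.

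**Figure D4:**
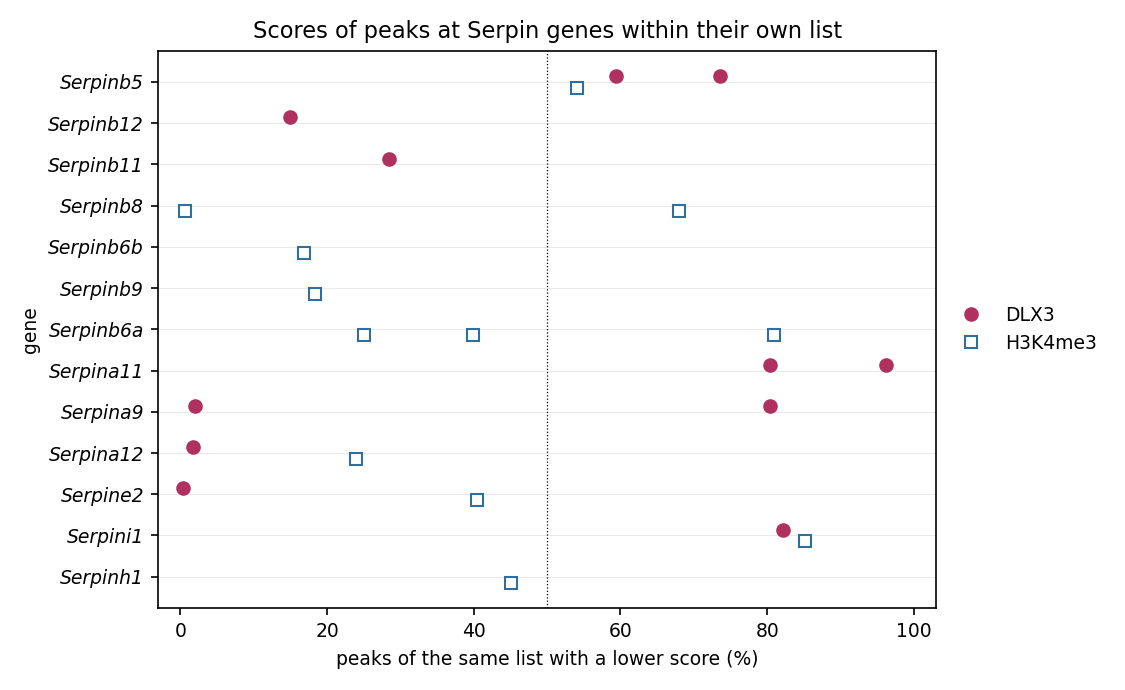
Peaks at the Serpin genes named in the text are placed by the percentage of peaks in their own list that scored lower, with filled circles for DLX3 and open squares for H3K4me3; the dotted line marks 50%. The peak at 80.4% shown at Serpina11 and at Serpina9 is the same peak. Serpina11 and Serpini1 stood highest for DLX3, while the peaks of Serpina12 and Serpine2 stood at 1.65% and 0.409%.

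The promoter letters differed between the clade b runs. The RefSeq promoter table (250 bases before and 50 after each listed start) held 54 of the 63 Serpin genes, and a gene was counted when any of its promoters had a match. The AP-1-like motif TGANTCA occurred at 7 of the 11 clade b genes of chromosome 1 with a listed promoter (63.6%) and 0 of 15 of chromosome 13. It occurred at 4 of 19 of clade a (21.1%) and 0 of 9 of the other clades, against 8.12% of 17492 protein-coding genes. The 4 clade a genes were Serpina1a, Serpina1b, Serpina1c and Serpina1d, whose promoters were 89.8% to 91.4% identical to that of another Serpina1 gene. Their matches begin 229 to 240 bases before the start, so they are not separate occurrences. AP-1 is a Fos and Jun dimer active in keratinocytes, and its usual site has C or G at N, where this search took any base. The shares of genes with C or G there were not computed. A match of letters is a description, not a binding site. The homeodomain core TAATT, a short AT-rich motif, occurred at 6 of the 11 genes of chromosome 1 (54.5%) and 4 of 15 of chromosome 13 (26.7%). It occurred at 2 of 19 of clade a (10.5%) and 4 of 9 of the other clades (44.4%), against 26.5% of all. The longer core TAATTG did not follow this order, with 1 of 11 genes on chromosome 1 (9.09%) and 3 of 15 on chromosome 13. Clade a had it at 0 of 19 and the other clades at 3 of 9, against 7.96% of all. Median G and C content was 39.7% in the clade b promoters of chromosome 1, 51.0% in those of chromosome 13 and 56.3% over all promoters. The part of base composition in the TAATT counts was not tested. The GC box GGGCGG occurred at 8 of the 54 Serpin genes (14.8%), against 49.2% of all, and 7 of these 8 had H3K4me3, the exception being Serpinb6c. Over all protein-coding genes 66.2% had H3K4me3. The share among all genes with a GC box was not computed, so no link of this motif with the mark can be read from these 8. CCAAT occurred in 33.3% of Serpin promoters, against 38.2% of all promoters, and TATAAA in 28.6% against 12.6%. Counted by gene, TATAAA occurred at 7 of 11 of chromosome 1 (63.6%), as often as TGANTCA, and 2 of 15 of chromosome 13 (13.3%). Clade a had TATAAA at 5 of 19 (26.3%) and the other clades at 1 of 9 (11.1%), against 14.8% of all.

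For each of the 7 genes on chromosome 1, 1 match upstream of the start is shown with 12 bases on either side, because these genes include some with and some without peaks; this set was chosen after the matches were seen. Capitals mark the motif, and all are on the plus strand, which is the strand of each gene (RefSeq, GRCm38.p6). The printed matches of Serpinb7 and Serpinb8 read TGAGTCA, and the others have A or T at the N of TGANTCA. In the order printed they lie at chr1:106861023-106861053, chr1:106934392-106934422, chr1:107362226-107362256, chr1:107422632-107422662, chr1:107511317-107511347, chr1:107528937-107528967 and chr1:107589971-107590001. Serpinb11 has another match further upstream and Serpinb8 another within the 50 bases after the start, and neither is printed.
Serpinb5: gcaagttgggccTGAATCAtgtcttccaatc
Serpinb12: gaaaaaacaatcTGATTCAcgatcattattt
Serpinb11: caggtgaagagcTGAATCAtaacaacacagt
Serpinb7: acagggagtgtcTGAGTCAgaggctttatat
Serpinb2: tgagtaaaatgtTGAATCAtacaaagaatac
Serpinb10: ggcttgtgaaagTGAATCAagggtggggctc
Serpinb8: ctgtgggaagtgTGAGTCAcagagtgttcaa

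Only the Serpinb5 match, which begins 140 bases before the start, lay inside a DLX3 peak among the 7 printed, and it lay inside H3K4me3 as well. The printed Serpinb8 match, 23 bases before the start, lay inside H3K4me3 without DLX3, and the other 5 lay in neither. Serpini1 had its TAATT match, 10 bases before the start on the opposite strand, outside the DLX3 peak and inside H3K4me3. Of the listed Serpin promoters, those of Serpini1 and Serpinb5 alone reach a DLX3 peak, and that of Serpinb5 has no TAATT match, so the overlap of this motif with DLX3 could be looked at in Serpini1 only.

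**Figure D5:**
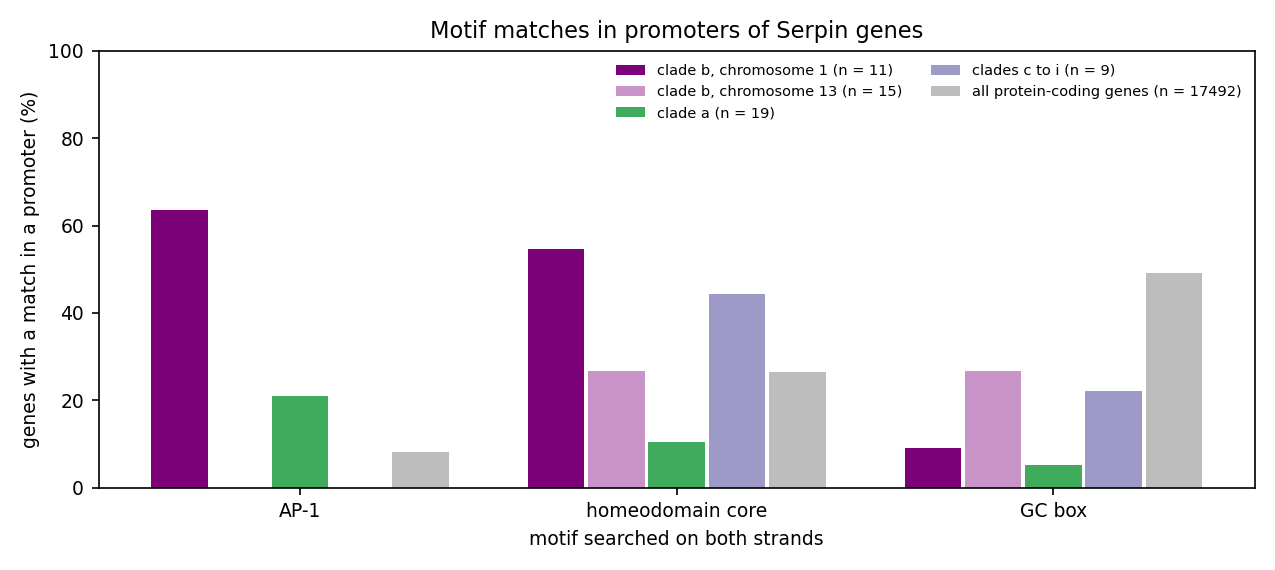
Bars give the percentage of genes with at least 1 match in a listed promoter for 3 motifs, with the number of genes in each set in the legend. The motif labelled AP-1 (TGANTCA, N being any base) stood at 63.6% in clade b of chromosome 1, against 8.12% of all protein-coding genes. It had no match in clade b of chromosome 13 or in clades c to i. TATAAA, which is not drawn, also stood at 63.6% in clade b of chromosome 1, against 14.8% of all protein-coding genes.

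Promoters of Serpin genes with H3K4me3 had more CpG dinucleotides at the median than those without, and the ranges overlapped. The promoters of Serpin genes with H3K4me3 had a median of 7 CpG dinucleotides in 300 bases (lowest 4, highest 41, n = 10 promoters). Those of Serpin genes without it had a median of 2 (0 to 11, n = 53). Over all protein-coding genes the medians were 20 with H3K4me3 (0 to 67) and 3 without (0 to 57). Near-identical copies limit what reads can be placed, and the highest identity of a promoter to that of another Serpin gene reached 93.4%, at Serpinb9e and Serpinb9g. The 7 promoters at or above 90% identity (Serpinb9e, Serpinb9g, Serpinb3b, Serpinb3c, Serpina1a, Serpina1b and Serpina1c) had neither peak, while the 12 genes with a peak and a listed promoter stayed at or below 59.6%. Most Serpin genes had neither peak in any case: 42 of the 54 with a listed promoter. The median highest identity of those 42 was 58.1%. The treatment of reads with several matches is not given in these sources, and the part of copy number in the missing peaks was not tested.

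Genes of serpin targets and of other inhibitors had higher shares with peaks than the 14.3% of the Serpin genes and lower ones than all protein-coding genes, of which 41.4% had DLX3 and 66.2% H3K4me3. Of 38 genes of proteases, most of them known serpin targets, 14 had a DLX3 peak (36.8%) and 16 H3K4me3 (42.1%), with the highest DLX3 scores at Prss8 (213.62), a membrane-anchored protease of the skin barrier, Ctsh (170.02), a cathepsin gene, and St14 (129.57), which encodes matriptase. Of 34 other protease inhibitor genes, 10 had a DLX3 peak (29.4%) and 16 H3K4me3 (47.1%), led by Timp3 (303.45), an inhibitor of metalloproteases, and by Spint1 (195.65) and Spint2 (176.42), inhibitors of matriptase. Of 7 receptor and partner genes, 4 had a DLX3 peak, led by Lrp1 (182.68), a clearance receptor of serpin-protease complexes, then Lrp8 (75.33) and Vtn (72.9), and 6 had H3K4me3 (57.1% and 85.7%). Of 17 suprabasal keratinocyte markers, 12 had a DLX3 peak (70.6%), led by Ppl (234.16), Krt80 (196.58) and Sbsn (158.01) and 15 H3K4me3 (88.2%), the highest shares among the cell type lists. Markers of other cells had DLX3 at 5 of 10 immune genes (Cd68, 269.75; Cd3g, 131.11; Coro1a, 110.28), 3 of 7 endothelial genes (Eng, 177.11; Pecam1, 138.07; Tie1, 50.8) and 2 of 6 melanocyte genes (Mitf, 174.0; Dct, 117.97). With so few genes in each list, these shares stand close to the 41.4% of all protein-coding genes. H3K4me3 lay at 1 of 7 endothelial and 3 of 6 melanocyte genes, against 66.2% of all. Whether peaks counted for list genes, here and above, also reach neighbouring genes was not looked at. No difference between these lists was tested.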

How the data were processed

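DLX3 and H3K4me3 were profiled by ChIP-seq, 1 library each. Bowtie 1.1.2, MACS 1.4.2, HOMER and build mm10 are named, per the submitters' processing notes; their settings and roles, and whether IgG was the control, are not given in these sources. The authors deposited 1 peak list per library with a score per peak, which has the form of the MACS score (a transformed p-value) and depends on depth and width. It was therefore used only to rank peaks of the same list. The lists give no read counts, so depth is unknown.

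Gene spans came from a RefSeq table of GRCm38.p6, the assembly of mm10, and starts and strands from the RefSeq promoter table. Positions count from 1. Peaks over each span with 5 kb on either side were counted with Python 3.11.15 and pandas 2.3.3, with code tested on simulated peaks (200 of 200 planted genes found). Promoter identity came from global alignment in Biopython 1.88; the planned protein identities were not computed here.

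The gene group, the 9 comparison lists of protease, inhibitor, receptor and cell type genes and the motifs were chosen with earlier results of these data known. Named were the genes with a DLX3 or H3K4me3 peak (1 gene is in the counts and not reported here), every clade b gene and the 3 highest-scoring list members (fewer where fewer had a peak). No replicate exists, so no p-value is given.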

Additional observations from a re-analysis of the deposited data

How the results depend on the processing

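Alternatives covered 3 other windows, gene ends, peak centres, higher score thresholds, the nearest gene alone and 3 other definitions of overlap; of 90 values, 68 stayed within 1.5 times the reported count and 22 moved further. Score thresholds moved most, and the shares of all protein-coding genes at those thresholds were not computed. With peaks at or above the median score, DLX3 lay at 4 Serpin genes (1 of clade b, 1 of clades c to i) on 5 peaks, and H3K4me3 at 4 (3 of clade b, 0 of clade a, 1 other) on 4 peaks. With the top 20% by score, DLX3 lay at 3 Serpin genes (0 of clade b, 1 of clades c to i) on 3 peaks, 1 of which met H3K4me3, and H3K4me3 at 2 (1 of clade b, 0 of clade a, 1 other) on 2 peaks. With 20 kb on either side, 5 of the 11 genes of clades c to i had H3K4me3, against 71.2% of all protein-coding genes. DLX3 then lay at 11 of the 63 Serpin genes, against 52.4% of all protein-coding genes, and 5 of the DLX3 peaks met H3K4me3. Within 5 kb of gene ends alone, 3 clade b genes had H3K4me3, because the starts of Serpinb6b and Serpinb9 lie deeper in their spans. The unknown depth limits what the absence of a peak can show. No paired analysis was possible because each antibody has 1 library.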

Other observations

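In the clade a run of chromosome 12, 3 DLX3 peaks lay outside the windows of protein-coding Serpin genes. A peak of score 115.58 (104080029 to 104080754, mm10) and a peak of score 52.67 (104083030 to 104083343) lay inside Serpina4-ps1, a transcribed pseudogene between Serpina12 and Serpina5. A peak of score 61.8 (104184303 to 104184812) lay 3982 bp from Serpina3e-ps, another Serpin pseudogene. In the clade b run of chromosome 13, an H3K4me3 peak of score 50.8 (33762307 to 33762986) lay 69.4 kb from the nearest protein-coding gene, Serpinb6e.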
